A study of Homo sapiens with 4 samples.

Results

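RAB GTPases and the proteins that regulate them were followed through a table of transcript windows enriched with the m6A reader YTHDF1. Members were the protein-coding genes of the table whose symbol was RAB with a number, or began with RAB11FIP, RABGAP or RABGEF, or was TBC1D or DENND with a number. The rule gave 63 genes of the 6679 protein-coding genes and 7550 genes in all that had a listed window. These 63 genes held 249 of the 26819 windows and lay on 22 chromosomes.

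RNA immunoprecipitation sequencing (RIP-seq) had been carried out in SNU638, an established human gastric cancer cell line. All cells overexpressed YTHDF1, spent 24 h without serum, and were then treated with interferon-γ (IFN-γ) at 10 ng/ml for 24 h. RNA pulled down with YTHDF1 through an antibody to its FLAG tag (IP-YTHDF1) was sequenced beside the total RNA of the lysate (input), with 2 biological replicates in each of the 2 groups. No untreated library, no library without overexpression and no precipitation with a control antibody (IgG) belonged to the comparison. The values therefore describe enrichment over input with overexpressed YTHDF1 under IFN-γ and not a change. RNA recovered without binding to YTHDF1 cannot be told apart in them.

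RAB GTPases are small switch proteins on the surface of vesicles and organelles. An exchange factor, such as a DENN domain protein, loads a RAB with GTP, and the loaded RAB then recruits effectors, such as the RAB11FIP proteins, that move, tether or fuse the membrane. An activating protein, usually one with a TBC domain, triggers hydrolysis of the GTP and switches the RAB off.

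The deposited table set IP-YTHDF1 against input in windows of 50 bp and gave each window a signal value, with its p-value and q-value, but no value for a single library. The signal value is a score without a stated scale, and its median over all windows of the table was 1.84. Replicate spread and sequencing depth were therefore not known, and no difference between genes was tested. All listed windows had a q-value of at most 0.05, and a q-value listed as 0 is one below the numeric limit of the table. The table listed at most 9 windows of a gene, numbered by position on the chromosome, so genes with 9 windows are known only in part. A gene without a window may have been unbound, too weakly expressed to be tested, or not expressed, and these cannot be told apart here.

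Among 138 protein-coding symbols of the RefSeq annotation that matched the naming rule, 62 (44.9%) had at least 1 window. Over all 20056 protein-coding symbols the share was 31.1%. The remaining member, RAB4B-EGLN2, is a read-through symbol that RefSeq does not hold among its coding genes, and DENND2B, which is listed under its older symbol ST5, was not counted. At a q-value of at most 0.001 the share was 33.3% (46 symbols), beside 20.8% of all coding symbols. With windows of a signal value of at least 2 alone it was 37.0% (51 symbols), beside 21.6%. At both limits the share of the members stayed above that of all coding symbols, but the table gives no expression levels, and the part of expression in these shares was not tested.

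By role, 30 of 64 GTPases (46.9%), 4 of 5 RAB11FIP effectors (80.0%), 18 of 43 TBC1D proteins (41.9%), 7 of 17 DENND proteins (41.2%) and 2 of 7 RAB-named regulators (28.6%) had a window. RAB5IF, named for its interaction with RAB5, and the read-through symbol made up the rest. None of the 11 TBC1D3 symbols, which are near-identical copies of each other, had a window, and how reads matching more than 1 copy were counted is not given in the sources used here. These 11 count among the 43 TBC1D symbols and lower the share of that class. Without the TBC1D3 symbols the share over all classes was 48.8%.

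**Figure D1:**
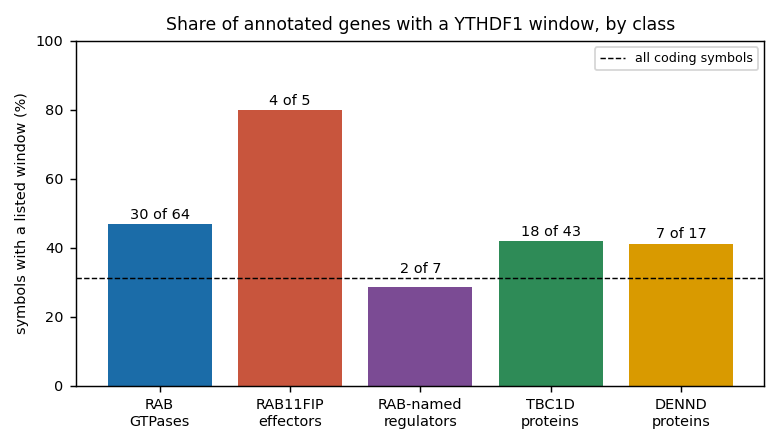
Share of the annotated symbols of each class that had at least 1 listed window, in percent, with the counts above the bars and the share over all coding symbols as a dashed line. The GTPases, TBC1D and DENND proteins lay between 41.2% and 46.9%, above the line at 31.1%, and the class of 7 RAB-named regulators was the only one below it (28.6%). The TBC1D bar includes the 11 TBC1D3 copies, none of which had a window.

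The strongest window of a member had a median signal value of 2.35 (quartiles 2.06 and 2.66, range 1.48 to 3.98), beside 2.23 (quartiles 1.94 and 2.56, range 0.87 to 6.76) over all coding genes with a window. The median over single windows was 1.83 in both. Members were therefore listed more often than coding genes as a whole, while the values of their windows lay in the same range. The DENND proteins had the highest class median of the strongest window (2.71, 7 genes), followed by the RAB11FIP effectors (2.55, 4 genes), the GTPases (2.30, 30 genes) and the TBC1D proteins (2.19, 18 genes). The highest and lowest of these medians lay closer together than the quartiles within the GTPases, which stood at 2.04 and 2.67.

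RAB43, a GTPase of the Golgi, held the strongest window of all members. The window lay at chr3:129095020-129095069 on the minus strand, reached 3.98 with a q-value listed as 0, and ranked 89 in the table. This value exceeded the strongest window of 99.5% of coding genes. The other 8 windows of RAB43 ranged from 1.13 to 2.63, so the strongest stood apart within its own gene. Of the 9 windows, 4 overlapped windows listed for the read-through gene ISY1-RAB43, and the strongest was not among them. All 9 lay in the RefSeq interval of ISY1-RAB43, however, so the strongest cannot be assigned to RAB43 alone either.

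RAB22A, which acts in early endosomal sorting and recycling, followed with 3 windows of 2.08, 2.82 and 3.50. Together they covered 200 bp at chr20:58309766-58309965, and the strongest was centred 225.5 bp from the 5′ end of the gene. Only 12 windows had been tested in RAB22A, as computed by dividing q-values by p-values, so 25% of those tested were listed. The corresponding median over members with under 9 windows was 7.50%, and over all such coding genes 8.33%.

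RAB40B and RAB40C carry a SOCS box and act as substrate adaptors of a ubiquitin ligase. RAB40B had a single window of 3.34 (chr17:82665874-82665923, q-value listed as 0). RAB40C had 3 adjoining windows of 2.99, 2.29 and 1.75 at chr16:590208-590357 and another of 1.15 far downstream, in a stretch of 38100 bp from first to last. Both genes were among the 7 members with the highest values, whereas RAB40A and RAB40AL had no window.

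RAB10, which drives the exocytosis of glucose transporter vesicles and basolateral cargo, had windows of 3.01 and 1.73. The stronger lay at chr2:26034135-26034184 (q = 3.49e-11), centred 874.5 bp from the 5′ end. RAB30, another GTPase of the Golgi, had 5 windows between 1.69 and 2.80. All 5 overlapped windows of the long noncoding RNA AP000893.2 on the same strand with nearly equal values (2.82 against 2.80 at the strongest), so the gene that the reads came from cannot be told apart. Both windows of RAB5C (1.09 and 1.61), an early endosome GTPase, overlapped those of AC099811.2 on the same strand, by 48 bp at values of 1.00 and 1.44. They cannot be assigned to RAB5C alone either.

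Of the GTPases of the endosomal route, RAB22A, described above, stood high. Among the others the values were moderate. RAB5B had windows of 2.06, 1.51 and 1.66, and RAB5A, its close relative, had none. RAB11A, the central GTPase of recycling endosomes, had adjoining windows of 2.26 and 2.57 (chr15:65877355-65877454), and its relatives RAB11B and RAB25 had none. RAB7A, which directs late endosomes to lysosomes, had separate windows of 2.38, 1.29 and 2.15, of which the weakest had a q-value of 0.047. RAB9A, for transport from late endosomes to the Golgi, had adjoining windows of 1.60 and 2.25. RAB35, a GTPase of fast recycling, had windows of 1.75, 1.78 and 2.15. RAB4A, RAB4B, RAB14, RAB21 and RAB31 were not listed, so the endosomal GTPases were represented by some members of each step rather than by whole subfamilies.

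Of the GTPases of the secretory route, RAB1B (1.85 and 1.37) and RAB2A (2.03, q = 0.0496) act between the endoplasmic reticulum and the Golgi, and neither reached the median of all coding genes. RAB2A lay closest to the q-value limit of all members. RAB6A, a GTPase of transport from and within the Golgi, had 1 window of 2.36 centred 60.5 bp from its 5′ end. RAB6C had 1 window of 2.50, but it is an intronless copy derived from RAB6A, only 2 windows were tested in it, and how reads that match both genes were assigned is not given in the sources used here. RAB33B, which is linked to autophagosome formation, had adjoining windows of 2.40 and 2.71. RAB1A, RAB2B, RAB6B and RAB18 were not listed.

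RAB8A and RAB8B serve exocytosis and the formation of cilia. RAB8A had windows of 1.80, 1.53 and 1.37 close to its 3′ end, with the strongest 1769.5 bp from it. RAB8B had a single window of 2.08 at the opposite end, 79.5 bp from the 5′ end. This pair and TBC1D2 with TBC1D2B and the 3 DENND4 genes were the subfamilies of more than 1 gene in which all members were listed. Of 28 such subfamilies, 18 were listed in part and 7 had no window under current symbols. The 7 include the DENND2 genes, although DENND2B is listed under its older symbol ST5.

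Of the GTPases of secretory granules and lysosome-related organelles, RAB27A had 4 windows between 1.61 and 2.35, of which 2, the strongest included, overlapped windows of PIGBOS1. All 4 lay in the RefSeq interval of PIGBOS1, so the values cannot be assigned to RAB27A alone. RAB3D, a GTPase of regulated secretion, had windows of 1.83, 2.06 and 1.83, and RAB38, which acts in melanosome formation, had 1.61, 1.76 and 1.38. RAB27B, RAB3A, RAB3B and RAB32 had none. RAB29, a partner of the kinase LRRK2, had adjoining windows of 2.44 and 2.7 and another of 1.67.

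RAB17, an epithelial GTPase of polarised transport, was the only GTPase besides RAB43 with 9 listed windows. They ranged from 1.43 to 2.52 at chr2:237581723-237590972, and 5 of them adjoined each other around the strongest. With 132 windows tested, RAB17 was also the GTPase with the most tested windows. The window at the 5′ side (2.43) lay outside the RefSeq interval of the gene.

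The remaining GTPases, RAB12, RAB15, RAB19, RAB20, RAB23 and RAB36, had a single window each. RAB36 had 2.39, RAB15 2.16, RAB12 2.15, RAB23 1.87, RAB20 1.62 and RAB19 1.48. RAB19 and the activating protein TBC1D16 shared the lowest strongest listed window of all members. At least 15 windows of TBC1D16 had passed and 9 are listed, so its strongest window may be missing. Single windows were frequent among the GTPases (11 of 30, 36.7%, beside 29.0% of all coding genes), which also had few tested windows, with a median of 20 against 36.

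**Figure D2:**
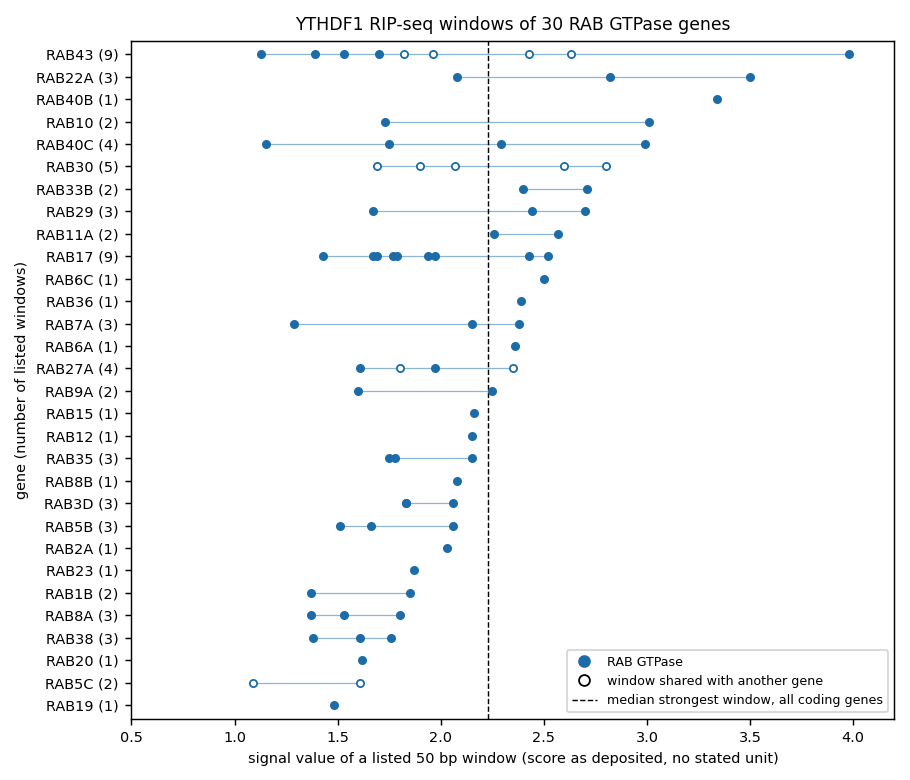
Signal value of every listed window of the 30 RAB GTPase genes, ordered by the strongest window, with the number of listed windows in brackets. Filled points are windows that no window listed for another gene overlapped, open points overlap a window listed for another gene on the same strand, and the dashed line marks the median strongest window of all coding genes (2.23). RAB43, RAB22A, RAB40B and RAB10 reached values above 3, and all windows of RAB30 and RAB5C were shared.

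The exchange factors of the DENND family had the highest class median of the strongest window, although over single windows the RAB11FIP effectors stood higher (2.09 against 2.00). The 3 DENND4 genes, whose proteins act on RAB10, were all listed. DENND4C had 3 adjoining windows of 1.83, 2.26 and 3.08 at chr9:19230636-19230785, although 70 windows were tested in the gene, and the strongest was centred 247.5 bp from the 5′ end, or 0.172% into the gene interval. DENND4A had windows of 2.96 and 1.89 within 200 bp (chr15:65756197-65756396), which lay 27.1% into the gene. DENND4B had 3 scattered windows of 1.60, 1.73 and 2.00, none of them above the median of all coding genes.

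The RefSeq promoter sequences (GRCh38.p14) covered 3 of the member windows examined whole. The middle window of DENND4C held the letters GGACT, a form of the core in which m6A is most often found. These sequences reach from 250 bases before a start site to 50 bases after it, so the letters may lie before or after the start used. The motif was searched on the strand of the gene only, and the same 50 positions relative to the start held these letters in 4.74% of 22199 protein-coding start sites. The stretch is printed to show where the letters stand, with GGACT in capitals, and whether the adenosine is methylated was not measured here.
DENND4C chr9:19230686-19230715, plus strand: caggcgcagaccGGACTgaggcggcggcgg
The window that this stretch begins had a signal value of 2.26 (q = 6.12e-05). The adjoining window that was covered, of 1.83, did not hold these letters, nor did the 5′-most window of RAB17.

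DENND11 had 9 listed windows between 1.63 and 3.25 over 40150 bp, of which the strongest lay at chr7:141674129-141674178 with a q-value listed as 0. At least 12 windows of DENND11 had passed, as computed from the order of its q-values, so windows are missing from its list. DENND3, an exchange factor of RAB12, had 5 windows of 2.71, 2.35, 1.98, 2.24 and 2.14. DENND6A, an exchange factor of RAB14, had 2.43 and 1.81, and DENND5B had a single window of 1.90 (q = 0.0245). None of DENND1A, DENND1B and DENND1C, which act on RAB35, was listed, nor was DENND5A.

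RAB3IP, the exchange factor of RAB8 also known as Rabin8, had 1 window of 2.23. RABGEF1, or Rabex-5, the exchange factor of RAB5, had 4 windows between 1.82 and 2.06. All of them overlapped windows of AC027644.4 on the same strand, so they cannot be assigned to RABGEF1 alone. RAB3GAP1, RAB3GAP2, RAB3IL1, RABGAP1 and RABGAP1L had no window. RAB5IF had windows of 2.17 and 2.39, both also inside the interval of the read-through gene TGIF2-RAB5IF. The read-through symbol RAB4B-EGLN2 had 7 windows from 1.05 to 2.66, all of them in the RefSeq interval of EGLN2 on the same strand, and 5 overlapped windows listed for EGLN2.

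The RAB11FIP effectors, which link RAB11 to motors and recycling membranes, were listed except for RAB11FIP2. RAB11FIP1 had 9 windows between 1.13 and 2.7, its strongest with a q-value listed as 0 (chr8:37877419-37877468). RAB11FIP5 had 9 windows between 0.99 and 2.66, of which 5 lay at chr2:73112383-73112682, the strongest of them centred 540.5 bp from the 5′ end. RAB11FIP4 had 6 windows between 1.81 and 2.43. RAB11FIP3, a relative of RAB11FIP4 that also acts in cell division, had a single window of 2.36 out of 63 tested. The median number of tested windows was 94.5 in these 4 genes, against 20 in the GTPases. The part of this in their window counts was not tested.

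The TBC1D proteins held 107 of the 249 windows, more than the 78 of the GTPases, and had the lowest median over single windows of the classes with more than 2 genes (1.71). Of the 18 genes, 8 (44.4%) had 9 listed windows, against 2 of 30 GTPases (6.67%), 13 of 63 members (20.6%) and 12.8% of all coding genes with a window. Each of the 13 genes had at least 10 windows that passed. The TBC1D counts and median include TBC1D5, whose 9 listed windows all lay outside its RefSeq interval. The TBC1D genes also had more tested windows, with a median of 64. Among coding genes with 50 to 99 tested windows, 25.3% had 9 listed windows, and among members with that many 7 of 19 (36.8%). Among those with 100 or more the shares were 60.3% of 471 coding genes and 5 of 5 members, so genes with more tested windows reached 9 more often, and the part of this in the contrast between TBC1D genes and GTPases was not tested.

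**Figure D3:**
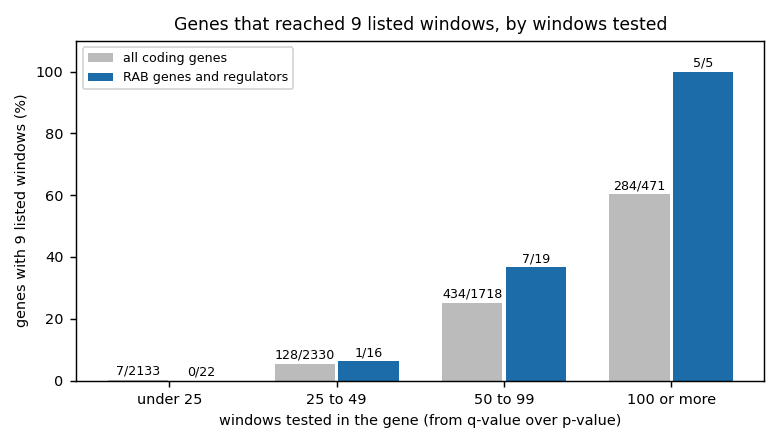
Share of genes with 9 listed windows, in percent, by the number of windows tested in the gene, for all coding genes (grey) and for the RAB genes and their regulators (blue), with counts above the bars. The share rose with the number of tested windows in both, from 7 of 2133 to 284 of 471 coding genes and from 0 of 22 to 5 of 5 members.

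TBC1D1 and TBC1D4, insulin-regulated activating proteins that act on RAB10 in the transport of the glucose transporter, both had 9 windows. In TBC1D1 they ranged from 1.37 to 2.52 in 5 regions over 86300 bp. In TBC1D4 they fell into 2 runs of adjoining windows that together spanned 119400 bp, with 1.29, 1.68, 1.62 and 1.33 at chr13:75362154-75362353 and 1.46, 1.20, 1.77, 2.02 and 1.64 at chr13:75481304-75481553. The second run lay close to the 5′ end, with its strongest window 690.5 bp from it. At least 14 windows of TBC1D4 had passed.

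TBC1D30, an activating protein linked to RAB8 and cilia, had its 9 listed windows packed into 500 bp at chr12:64780717-64781216, with values from 1.42 to 2.78, and at least 11 of 37 tested windows had passed. This was the shortest stretch among the 13 genes with 9 windows. TBC1D16, which acts on RAB4A, had low listed values, between 0.96 and 1.48 within 4650 bp. In it 223 windows had been tested, the most of any member. At least 15 of them had passed, so stronger windows may be missing from its list. TBC1D9B had 9 separate regions, with 2.22 at the strongest and 0.97 at the weakest. TBC1D8 had values from 1.17 to 2.52.

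TBC1D5, an activating protein of RAB7 that works with retromer, is listed with 9 windows from 1.63 to 2.96, but none lay in its RefSeq interval. They stood at chr3:18352113-18424412, between the ends of SATB1 on the same strand and at least 609 kb beyond the RefSeq end of TBC1D5, and 4 of them overlapped windows listed for SATB1. The values can therefore not be read as those of TBC1D5. In TBC1D24, a gene of inherited epilepsy and deafness, 6 of the 9 windows overlapped those of AC093525.2, and the 9 windows ranged from 1.37 to 2.01 within 850 bp.

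TBC1D20, the activating protein of RAB1, had 8 windows from 1.32 to 2.38, and TBC1D10B, which acts on RAB35 and RAB27A, had 7 from 0.75 to 2.09. The 0.75 was the lowest window of all members. TBC1D13, another activating protein of RAB35, had a single window of 2.50 (q = 6.78e-08), and TBC1D17 a single window of 2.27. TBC1D2 (2.27 and 2.32), an activating protein of RAB7 also called Armus, and TBC1D2B (1.84, 2.15 and 1.71) were both listed. TBC1D14, which acts in autophagy, had windows of 2.11, 1.34 and 1.66, and TBC1D22B had 4 windows from 1.65 to 2.09. TBC1D25, an activating protein of RAB33B, had 1.76, 1.43 and 1.41, and the strongest overlapped windows of AF196969.1 with higher values (2.77 and 2.12). The 3 adjoining windows of TBC1D12 all had 1.71. TBC1D7, a subunit of the TSC complex, TBC1D10A and TBC1D15 had no window.

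**Figure D4:**
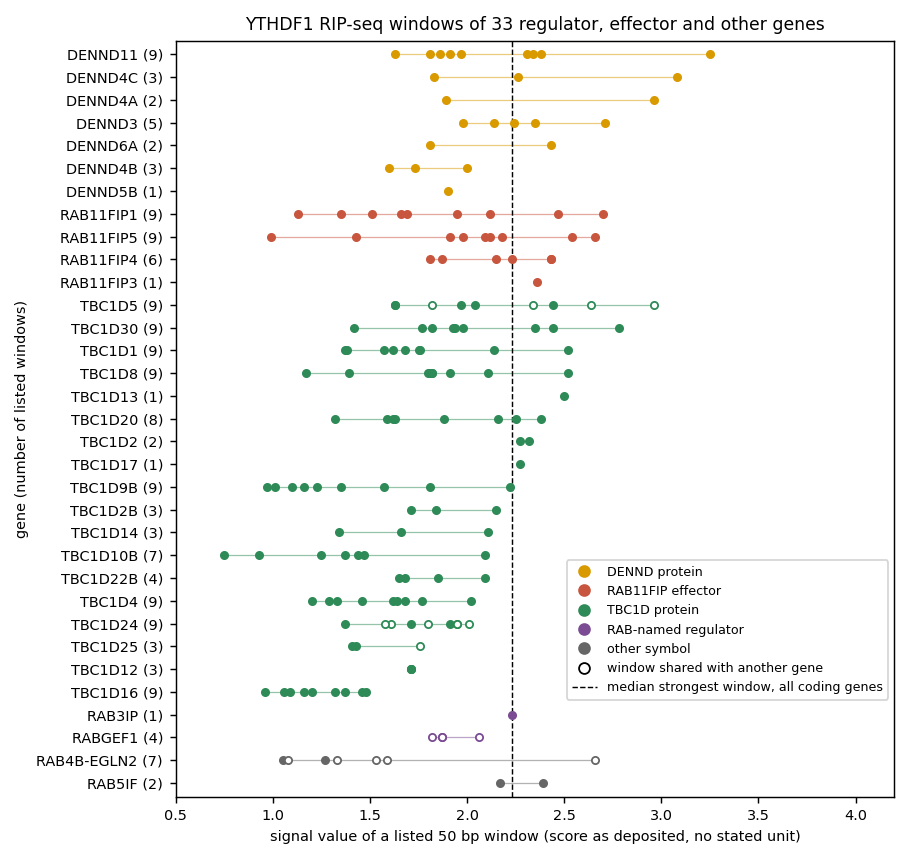
Signal value of every listed window of the 33 regulator, effector and other genes, by class and then by strongest window, with the number of listed windows in brackets. Filled points are windows that no window listed for another gene overlapped, open points overlap a window listed for another gene on the same strand, and the dashed line marks the median strongest window of all coding genes (2.23). DENND11 and DENND4C exceeded 3, all listed windows of TBC1D16, whose list is cut at 9, lay below 1.5, and those of TBC1D12 coincide at 1.71.

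Known partners were set side by side. RAB10 was listed with its exchange factors DENND4A, DENND4B and DENND4C and its activating proteins TBC1D1 and TBC1D4. RAB12 was listed with its exchange factor DENND3, and RAB8A and RAB8B with RAB3IP. RAB35 was listed with TBC1D10B and TBC1D13 but without a DENND1 gene, and RAB14 was not listed although its exchange factor DENND6A was. The partners were taken from general knowledge after the values had been seen, and no test was run on the pairs.

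Windows of a gene often adjoined each other. Joining adjoining windows gave 170 regions in the 63 members, and in 22 members (34.9%) all windows formed 1 region, beside 38.3% of all coding genes with a window. Among the GTPases this was so in 15 of 30 genes and among the TBC1D proteins in 3 of 18.

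Of the 249 member windows, 33 in 9 members overlapped a window listed for another gene on the same strand, and 0 overlapped a window on the other strand. In RAB30, RAB5C and RABGEF1 all windows were shared. Without shared windows, 59 of the 138 symbols (42.8%) had a window, beside 29.4% of all coding symbols.

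The position of the strongest window in its gene could be given for 61 members, from the RefSeq interval that includes introns. The median lay 34.8% of the interval from the 5′ end, beside 24.7% in 6038 coding genes. Within 1000 bp of the 5′ end lay 24 of 61 (39.3%), beside 36.9%, and within 1000 bp of the 3′ end lay 1 (1.64%), RAB20, beside 5.37%. By class the strongest window was this close to the 5′ end in 11 of 30 GTPases, 6 of 17 TBC1D proteins and 5 of 7 DENND proteins (DENND3, DENND4B, DENND4C, DENND5B and DENND6A). In genes with 9 listed windows the strongest window may be among those not listed. In the 49 members with under 9 windows the median was 25.2%, and in the 5260 coding genes with under 9 windows it was also 25.2%. In these sets the strongest window lay within 1000 bp of the 5′ end in 22 members (44.9%), beside 37.3% of the coding genes.

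**Figure D5:**
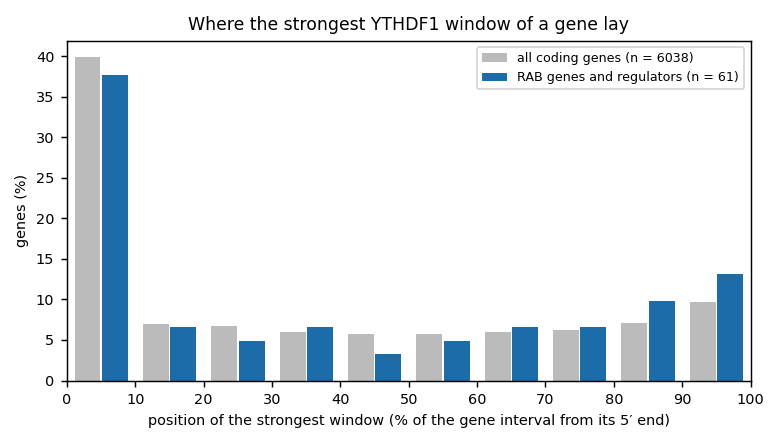
Position of the strongest listed window as a percent of the gene interval from its 5′ end, in bins of 10%, as the percent of genes in each bin for 6038 coding genes (grey) and 61 members (blue). The first bin held 37.7% of the members and 39.9% of the coding genes, and the last bin held 13.1% and 9.69%.

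Beyond the naming rule, 56 other genes of the RAB cycle were looked up, and 38 (67.9%) had a window, with a median strongest value of 2.17. Over all coding symbols, with older symbols matched as in this list, the share was 31.8%. Of the genes of prenylation and recycling of RABs 5 of 8 were listed, among them GDI2 (2.20), which extracts RABs from membranes. CHML, an escort protein for prenylation, had 9 windows up to 2.69, all shared with another gene. Of other exchange factors 13 of 15 were listed, with SBF2 highest (3.25), and MON1A (2.14), MON1B (2.18) and CCZ1 (1.91), which form the exchange factor of RAB7, all present. Of other activating proteins 4 of 8 were listed, with USP6NL, which acts on RAB5, highest (2.96). Of the effectors 16 of 25 were listed. RABEP1 (3.39) and RBSN (2.94), effectors of RAB5, were the strongest, whereas EEA1, APPL1 and APPL2, also effectors of RAB5, had no window. This list was written with results of these data known and favours well-studied genes, so its share cannot be compared like for like with that of all coding symbols.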

How the data were processed

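RIP-seq of 4 libraries (2 IP-YTHDF1 and 2 input) was available as 1 table. Per the submitters' processing notes, STAR 2.7.3a and GRCh38 were used. The peak caller and its settings are not given in the sources used here, and the kit preserves strand. The authors deposited a signal value and a rank (scores without a stated scale), a p-value and a q-value for each 50 bp window. A legend of the study speaks of a union of replicates, so a window may rest on 1 replicate. The table has no columns of single libraries (0 left unused), and depth is unknown.

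Of 26820 rows, 1 repeated row was dropped. Positions are counted from 1. Of 23172 windows in coding genes with 1 RefSeq interval, 97.3% lay inside it (GRCh38.p14), and 93.3% of 6674 coding symbols matched RefSeq. Windows tested per gene were computed from q-value, p-value and order under Benjamini-Hochberg adjustment within a gene, where p was above 1e-14, and the computation was tested on simulated data. Shares and medians were set beside those of all coding genes, with no test. Members, gene lists and classes were chosen with earlier results of these data known. Named were a panel of 35 GTPases and 33 regulators (18 and 20 listed), the 10 strongest and 3 weakest members and those with 9 windows; further members were added to account for all 63. Alternatives were limits of 0.001 and 2, unshared windows, GTPases alone, joining within 100 bp and genes under 9 windows. The software was matplotlib 3.10.9, SciPy 1.17.1, NumPy 2.4.6 and pandas 2.3.3 under Python 3.11.15.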

Additional observations from a re-analysis of the deposited data

How the results depend on the processing

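The share of symbols with a window (44.9%) moved to 33.3% at a q-value of at most 0.001, and ranged from 37.0% to 48.8% under the other alternatives. The 249 windows fell to 116 at that limit and to 92 where the signal value had to reach 2. The median of the strongest window (2.35) became 1.93 when the median window of each gene was taken, beside 1.91 over coding genes. It lay between 2.26 and 2.43 otherwise, and at a q-value of at most 0.001 it was 2.43 beside 2.42. The share with 9 windows was 6.67% for GTPases alone against 20.6%. Joining touching windows gave 170 regions, and 216 windows were shared with no other gene. Leaving out the TBC1D3 copies, matching older symbols (45.7%) and leaving out windows outside the RefSeq interval (2.34) were chosen after seeing the data.

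No paired analysis was possible because values of single libraries are absent from the table. For the same reason no replicate was left out, and the depth behind a value is unknown. Lists end at 9 windows in 13 members, which lose windows on the 3′ side of genes on the plus strand and on the 5′ side of genes on the minus strand.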
